A study of Rattus norvegicus with 9 samples.

Results

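Tongues of rats that drank the carcinogen 4-nitroquinoline 1-oxide (4NQO) were compared with tongues of untreated rats. The comparison used 6 of the 9 arrays of the series, namely the 3 labelled 4NQO and the 3 labelled normal condition. The other 3 came from rats given 4NQO and the interleukin-1 receptor antagonist (IL-1Ra). They entered the estimate of the spread, the choice of the probe set for each gene and the alternative scalings of the arrays. The rats were male Sprague-Dawley, with no age stated, and each sample was total RNA from tongue tissue. Normal rats drank distilled water. By the labels, the 4NQO rats drank water with 0.002% 4NQO and were killed between week 14 and week 22, when tongue lesions could be seen. The study's methods describe 14 weeks of 4NQO, then weekly injections of saline under the mucosa of the tongue up to killing at the close of week 22. The effects of 4NQO and of the injections cannot be told apart if that account holds. No source used here gives the lesion stage or the hour of killing. The design text of the series names epithelia and fibroblasts, whereas the sample labels give tongue tissue.

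The dorsal surface of the rat tongue is a stratified squamous epithelium that divides in its basal layer and cornifies at its surface. Its filiform papillae carry a hard column built from hair-type keratins. Beneath lie a collagen-rich lamina propria, vessels, nerves, small glands and a large mass of striated muscle. 4NQO is reduced in cells to a form that attaches to purine bases, and these bulky lesions are removed mainly by nucleotide excision repair. Prolonged dosing leads through dysplasia to squamous cell carcinoma of the tongue. In a piece of whole tissue, fewer cells of a type and less RNA per cell cannot be told apart.

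A value below is the log2 of the deposited intensity of the probe set that was brightest on average for its gene, and a difference is 4NQO minus normal on that scale ± SE. A gene rose or fell where limma gave a p adjusted over 31042 probe sets under 0.05. Of 14217 genes, 2479 (17.4%) passed, of which 1757 rose, 12.4% of all, and 722 fell, 5.08%. The arrays of the groups did not overlap in 26.5% of genes with higher 4NQO values and in 14.8% with lower ones. These figures are the background for each count below. The split depended on the scaling of the arrays, since 745 genes rose (5.24%) and 670 fell (4.71%) after quantile normalization, and 565 rose (3.97%) and 663 fell (4.66%) after cyclic loess. The median difference over all genes was 0.08 as deposited and 0.00 after cyclic loess. Counts also fell when a normal array was left out, to 334 higher and 121 lower genes without normal array 3. In all, 293 genes rose and 112 fell in each of 16 settings, which were the deposited values, the other scalings, variance models and array subsets, and such genes are called stable below. RNA quality was compared through control probe sets. For beta-actin, the 3′ control probe set exceeded the 5′ one, on the log2 scale, by 1.20 ± 0.114 (SD, n = 3) in 4NQO and 0.802 ± 0.0617 (SD, n = 3) in normal tongue, with an exact two-sided permutation p of 0.1, the smallest that 3 arrays against 3 can give. The same difference was 0.347 ± 0.0695 against 0.268 ± 0.0323 for GAPDH (exact permutation p = 0.1, n = 3) and 1.496 ± 0.256 against 1.501 ± 0.0277 for hexokinase (exact permutation p = 1, n = 3). The part of these gaps in the results was not tested.

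The 15 largest rises outside low signal included genes described below, Cdkn2a, Dbp, Per2, Bhlhe41, Bhlhe40, Nr1d2 and Asns. Among the others, Akr1b8, an aldo-keto reductase that removes reactive carbonyls, read 8.26, 7.19 and 8.10 in normal tongue and 9.38, 8.89 and 10.91 in 4NQO tongue (1.88 ± 0.48, limma adjusted p = 0.0317). Its call was lost after quantile normalization, after cyclic loess and in 3 of the fits that left out 1 array. Lcn2, the iron-binding lipocalin of inflamed epithelia and neutrophils, read 4.52, 4.6 and 4.59 against 7.35, 5.16 and 6.31 (1.70 ± 0.42, limma adjusted p = 0.028), so that the normal arrays were even and the 4NQO arrays spread. Lcn2 kept its call under both scalings but lost it in 4 of the fits that left out 1 array. Sh2b2, an adaptor of insulin and cytokine receptors, rose by 1.59 ± 0.25 (limma adjusted p = 0.00705) and was stable. Of the 15 largest falls, most were keratins, keratin-associated proteins and cornified envelope genes. The largest was that of an uncharacterised gene, LOC100363236, at 12.22, 10.97 and 12.57 against 3.18, 4.55 and 6.73 (−7.10 ± 1.01, limma adjusted p = 0.00546). Slurp1, a secreted protein of keratinocytes, fell 7.97-fold, from 10.08, 9.07 and 9.99 to 6.66, 5.32 and 8.17 (−2.99 ± 0.58, limma adjusted p = 0.013). For these genes too, no 4NQO array overlapped the normal arrays.

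The upper layers of the epithelium held the largest falls. The epidermal differentiation complex is a block of genes for cornified envelope proteins and S100 proteins on chromosome 2. Between S100a10 and S100a13, 27 of its genes were measured, and 12 of them fell, with a median difference of −0.81 over the 27 against 0.08 over all genes. S100a7l2, an S100-like gene of this block, read 11.01, 9.14 and 10.70 on the normal arrays and 3.89, 3.56 and 7.65 on the 4NQO arrays. The groups did not overlap, and 4NQO array 3 kept the highest value of its group. The difference was −5.25 ± 1.02 (limma adjusted p = 0.013). Ivl, which encodes the envelope protein involucrin, read 6.76, 5.32 and 6.96 in normal tongue and 3.90, 3.48 and 4.61 in 4NQO tongue, so that every 4NQO array lay below every normal one, and fell by 2.35 ± 0.42 (limma adjusted p = 0.0105). The fall did not take in the whole block. S100a10 and S100a11, which are expressed in many cell types, differed by 0.09 and 0.20 without passing the test, and S100a8 and S100a9, the calprotectin subunits, had estimates above 0 that did not pass either (0.82 and 1.61, limma adjusted p = 0.261 and 0.0857).

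Of 15 cornified envelope precursors, 10 fell, and the median of the 15 was −1.83. The count was 8 after quantile normalization and 8 after cyclic loess, and it ranged from 4 without normal array 3 to 12 without 4NQO array 2 or 3. Kprp, Lce1f, Lce3b and Scel were the stable members. Periplakin (Ppl), which links the envelope to keratin filaments, read 11.59, 11.53 and 11.61 on the normal arrays and 10.28, 8.94 and 10.57 on the 4NQO arrays. The normal arrays were almost equal, every 4NQO array lay beneath them, and array 2 lay lowest. The difference was −1.65 ± 0.33 (limma adjusted p = 0.014). Loricrin, the main envelope protein, was lower on each 4NQO array at 12.58, 10.59 and 12.47 against 13.35, 13.14 and 13.33, but its difference of −1.39 ± 0.42 missed the threshold (limma adjusted p = 0.051).

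In the type I keratin cluster on chromosome 10, from Krt24 to Krt19, 4 of 13 measured genes fell with a median of −1.07. In the type II keratin cluster on chromosome 7, from Krt7 to Krt18, 3 of 12 fell with a median of −0.17. Of 10 hair keratin and papilla genes 4 fell, 1 without normal array 1 and none without normal array 3. Krt78, a type II keratin of the upper layers of internal stratified epithelia, read 11.45, 10.92 and 11.41 in normal tongue and 9.58, 7.74 and 9.45 in 4NQO tongue and was 5.05-fold lower (−2.34 ± 0.40, limma adjusted p = 0.00893). Krt23, a type I keratin, read 9.94, 9.52 and 10.26 against 7.80, 7.92 and 7.69, which is a difference of −2.10 ± 0.19 (limma adjusted p = 0.0031). Both keratins were separated between the groups by more than 1 log2 unit and were stable. Krt4 and Krt13, the paired keratins of the suprabasal layers of the oral mucosa, differed far less. Krt4 read 13.42, 13.42 and 13.48 against 13.25, 12.86 and 13.38, and its difference of −0.28 ± 0.13 did not pass (limma adjusted p = 0.172), as that of Krt13 did not (−0.33 ± 0.13, limma adjusted p = 0.11).

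All 13 measured basal keratinocyte genes had estimates above 0, 5 of them rose, and their median was 0.63. The 5 were 4 after quantile normalization and 3 after cyclic loess, and between 3 and 5 when an array was left out. Col17a1, the hemidesmosomal collagen XVII, read 8.94, 8.16 and 8.63 in normal tongue and 9.58, 9.98 and 10.64 in 4NQO tongue. The groups did not overlap, and 4NQO array 3 was the highest. It rose 2.80-fold (1.49 ± 0.26, limma adjusted p = 0.0093). Its partner integrin beta 4 (Itgb4) rose 2.38-fold, from 7.99, 8.13 and 7.84 to 9.12, 8.94 and 9.64 (1.25 ± 0.17, limma adjusted p = 0.00475). Tp63, which encodes the transcription factor p63 that maintains basal keratinocytes, rose by 1.4 ± 0.33 (limma adjusted p = 0.0226) from 8.51, 7.47 and 8.27 to 9.07, 9.14 and 10.24, but was not called after cyclic loess. The basal keratin Krt5 was higher on each 4NQO array without passing the test (0.81 ± 0.26, limma adjusted p = 0.0635), and Krt14 overlapped between the groups (0.45 ± 0.43, limma adjusted p = 0.5).

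Of 26 transcription factors and Notch pathway members of epithelial differentiation, 4 rose and 4 fell. Hopx and Prdm1 were stable falls. Hopx, a homeodomain protein of the upper layers, read 12.09, 12.04 and 12.11 on the normal arrays, a spread under 0.1, and 10.24, 9.48 and 10.77 on the 4NQO arrays, all of them more than 1 log2 unit lower, with a difference of −1.92 ± 0.26 (limma adjusted p = 0.0047). Prdm1, the repressor BLIMP1, which acts in cornifying cells and also in plasma cells, fell 3.95-fold, from 9.15, 8.44 and 8.92 to 7.24, 6.16 and 7.17 (−1.98 ± 0.28, limma adjusted p = 0.00522). The epithelial factor Ehf fell by 0.93 ± 0.18 (limma adjusted p = 0.0116). The rises were those of Tfap2a, a factor of the lower layers (0.96 ± 0.22, limma adjusted p = 0.0212), of the Notch ligand Jag2 (0.72 ± 0.13, limma adjusted p = 0.0106), of Notch1 (0.74 ± 0.17, limma adjusted p = 0.0208) and of Ets1 (0.41 ± 0.11, limma adjusted p = 0.0355). After quantile normalization 2 of the 4 rises were called and after cyclic loess 1, and without normal array 3 none of the 4 was and 2 falls were. Klf4, a factor of the barrier layers, read 11.84, 11.11 and 11.81 against 10.61, 9.86 and 11.29 and did not pass (−1.0 ± 0.33, limma adjusted p = 0.0652).

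**Figure D1:**
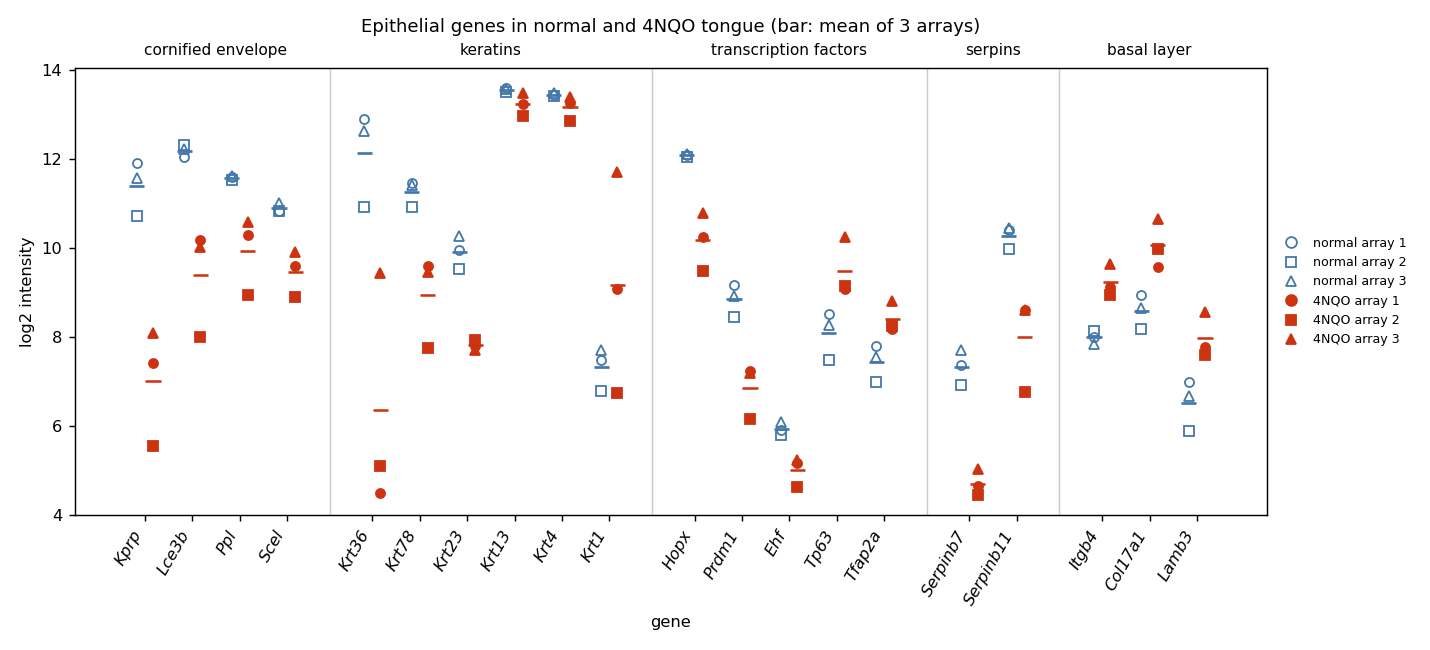
Log2 intensity (vertical axis) of genes of the upper and basal epithelium on the 3 normal arrays (open blue) and the 3 4NQO arrays (filled red), with a bar at each group mean. The late genes, such as Krt78, Krt23 and Hopx, lie lower on every 4NQO array, while Col17a1 and Itgb4 lie higher on every 4NQO array.

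Serpins, a family of protease inhibitors, went both ways, with 3 of 20 members higher and 6 lower. After cyclic loess 1 rose and 4 fell, and without normal array 3 no rise and 1 fall were called. Serpinb7, an epidermal member, was the stable fall, at 7.36, 6.91 and 7.71 in normal tongue and 4.64, 4.44 and 5.02 in 4NQO tongue (−2.63 ± 0.30, limma adjusted p = 0.00367). Its neighbours in function Serpinb11 and Serpinb12 fell by 2.28 ± 0.43 and 1.13 ± 0.32 (limma adjusted p = 0.0114 and 0.0433). Serpinb1a, which inhibits neutrophil proteases, rose by 0.91 ± 0.20 (limma adjusted p = 0.0177), from 9.95, 10.32 and 10.07 to 10.94, 10.80 and 11.32. The groups were apart for each of these 4 genes. Of proteases of the upper epithelium, the kallikrein Klk10 fell by 1.87 ± 0.44 (limma adjusted p = 0.0236) and bleomycin hydrolase (Blmh), which degrades citrullinated filaggrin, fell 2.82-fold (−1.50 ± 0.20, limma adjusted p = 0.0047).

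Cdkn2a, which encodes the cell cycle inhibitor p16 and ARF, rose from 4.64, 4.32 and 3.98 to 7.85, 7.07 and 7.78 (3.25 ± 0.35, limma adjusted p = 0.0033). Cdkn2b, its neighbour, which encodes the related inhibitor p15, read 4.87, 4.76 and 4.73 in normal and 4.73, 4.57 and 5.08 in 4NQO tongue. The Cdkn2b values overlapped, and its difference was 0.01 ± 0.16 (limma adjusted p = 0.983). Among the 5 measured genes on each side of Cdkn2a on chromosome 5, 3 of 10 rose. These were Mtap, the methionine salvage enzyme often deleted with CDKN2A in tumours, by 0.98 ± 0.15 (limma adjusted p = 0.00736), Plaa by 0.48 ± 0.10 and Focad by 0.40 ± 0.11 (limma adjusted p = 0.0183 and 0.0389). Mtap read 6.36, 6.04 and 6.29 against 7.01, 7.07 and 7.56. Cyclin D1 (Ccnd1), which activates the kinases that p16 inhibits, rose 2.51-fold, from 8.67, 8.41 and 8.62 to 9.64, 9.60 and 10.44 (1.33 ± 0.21, limma adjusted p = 0.00736), and the groups were nearly 1 log2 unit apart. Cyclin E1 (Ccne1) rose by 0.68 ± 0.17 (limma adjusted p = 0.03). Cdkn1a, which encodes p21, did not pass at 10.88, 10.45 and 10.53 against 11.12, 10.86 and 10.87 (0.33 ± 0.14, limma adjusted p = 0.124), and neither did Cdkn1b, for p27 (−0.25 ± 0.12, limma adjusted p = 0.162).

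Of 38 genes of replication licensing and S phase, 15 rose and 1 fell, with a median of 0.47, while of 39 mitotic genes 2 rose, with a median of 0.30. The difference between the lists was not tested. The S phase rises numbered 12 after quantile normalization and 8 after cyclic loess, and ran from 5 without normal array 3 to 16 without 4NQO array 2. Fen1, the flap nuclease that trims Okazaki fragments, read 5.74, 5.52 and 5.59 against 6.54, 6.64 and 6.61 (0.98 ± 0.12, limma adjusted p = 0.00379). Fen1, Cdt1, Mcm4, Rfc1 and Rrm1 were stable, although further probe sets of Rfc1 ran from −0.42 to 0.99. Subunits of the MCM helicase shared a pattern among the arrays. Mcm6 read 5.83, 5.42 and 5.63 in normal tongue and 6.32, 6.44 and 7.59 in 4NQO tongue (1.16 ± 0.29, limma adjusted p = 0.0301), and Mcm3 read 5.75, 5.69 and 5.88 against 6.35, 6.43 and 7.16 (0.88 ± 0.19, limma adjusted p = 0.0191). For both, 4NQO array 3 stood above the other 4NQO arrays. The fall was that of Slbp, the histone mRNA binding protein (−1.02 ± 0.22, limma adjusted p = 0.0188). In mitosis, Cdc25b, a phosphatase that triggers entry, rose by 1.35 ± 0.31, and the kinase Aurka by 0.60 ± 0.12 (limma adjusted p = 0.0221 and 0.0149). The proliferation marker Mki67 overlapped at 7.25, 6.64 and 7.37 against 7.33, 6.78 and 8.21 (0.35 ± 0.34, limma adjusted p = 0.492). Mitotic rises numbered 6 without 4NQO array 2, and none was called without normal array 2 or 3.

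Of 39 members of the MYC family and its targets in ribosome biogenesis, 19 rose and 1 fell, with a median of 0.52. There were 14 rises after quantile normalization and 8 after cyclic loess, and from 9 without normal array 3 to 21 without 4NQO array 1. The sequence from RNA polymerase I to the large subunit was represented throughout. Ubtf, which opens ribosomal DNA for polymerase I, read 6.82, 6.79 and 6.68 in normal tongue and 7.55, 7.53 and 7.64 in 4NQO tongue (0.81 ± 0.10, limma adjusted p = 0.00384). Rrn3, the initiation factor of the same polymerase, rose by 0.59 ± 0.10 (limma adjusted p = 0.00907). Pes1 and Wdr12, which with Bop1 form the PeBoW complex of large subunit processing, rose by 0.82 ± 0.12 and 0.66 ± 0.09 (limma adjusted p = 0.00625 and 0.00562), and Bop1 by 0.71 ± 0.13 (limma adjusted p = 0.0114). For Wdr12, the values 7.03, 7.12 and 7.05 moved to 7.67, 7.70 and 7.80, which left a gap larger than the range of either group. Nolc1, Ppan and Myc itself were stable too, while the nucleolar proteins Ncl, Dkc1 and Nop56 lost their calls after cyclic loess. Mxd1, which opposes MYC at shared sites and is expressed in differentiating keratinocytes, was the fall, from 7.99, 7.74 and 8.0 to 6.56, 5.60 and 6.58 (−1.66 ± 0.24, limma adjusted p = 0.00546), and another MYC antagonist, Mnt, rose by 0.80 ± 0.15 (limma adjusted p = 0.0128). The ribosomal proteins themselves showed no call. None of 42 passed limma's test, with 2 at an unadjusted p under 0.05 and 2 by the methods' t-test, and their median was 0.15.

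Of 34 genes of nucleotide excision and translesion repair, 12 rose with a median of 0.27, and no rise in the list except that of Rad18 exceeded 0.8. These small differences depended on the scaling, as 4 rises were called after quantile normalization, 2 rises and 2 falls after cyclic loess, and 2 rises without normal array 3. Ercc3 and Ercc5, a helicase of TFIIH and the nuclease that cuts 3′ of a lesion, were stable. Ercc3 read 7.73, 7.79 and 7.63 against 8.32, 8.31 and 8.46 (0.65 ± 0.10, limma adjusted p = 0.00774) and Ercc5 read 6.87, 7.07 and 7.01 against 7.58, 7.79 and 7.55 (0.66 ± 0.11, limma adjusted p = 0.00788). The groups were apart for both. Xpc, which recognises the distorted helix, rose by 0.55 ± 0.11 (limma adjusted p = 0.0151). Rad18, the ligase that marks stalled PCNA for translesion synthesis, rose by 1.08 ± 0.29 (limma adjusted p = 0.0363), from 5.14, 4.28 and 4.87 to 5.32, 5.73 and 6.50, and 4NQO array 1 exceeded the highest normal array by under 0.2.

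In double-strand break repair, 8 of 34 genes rose with a median of 0.32, 6 after quantile normalization and 6 after cyclic loess, and 3 when any normal array was left out. Mdc1, the scaffold that binds phosphorylated histone H2AX, read 6.27, 5.91 and 6.03 in normal tongue and 7.19, 7.04 and 7.41 in 4NQO tongue and rose 2.21-fold (1.14 ± 0.13, limma adjusted p = 0.00367). The Ku heterodimer, which binds broken ends, rose in both subunits. Xrcc6 (Ku70) moved from 5.79, 5.57 and 5.67 to 6.24, 6.46 and 6.61 (0.76 ± 0.12, limma adjusted p = 0.00765) and Xrcc5 (Ku80) from 6.35, 6.16 and 6.21 to 7.06, 7.03 and 7.23 (0.87 ± 0.10, limma adjusted p = 0.00411), with no overlap for either, although a further Xrcc5 probe set differed by −0.07. Of 25 base excision and mismatch repair genes 6 rose and 1 fell, with a median of 0.33. The rises numbered 4 after quantile normalization, 3 after cyclic loess and 1 without normal array 3. Polymerase beta (Polb), which fills short gaps, was the fall, at 8.03, 8.09 and 8.15 against 7.62, 7.47 and 7.64 (−0.51 ± 0.12, limma adjusted p = 0.0226), while the replicative polymerase subunit Pold1 rose by 0.90 ± 0.18 (limma adjusted p = 0.0133). The glycosylase Ogg1 did not pass (−0.16 ± 0.10, limma adjusted p = 0.285).

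Of 26 p53 targets, 8 rose and 1 fell, with a median of 0.20. After cyclic loess 2 rose and 2 fell, and the rises numbered 3 without normal array 2 or 3. The members that rose included Mdm2, the ligase that degrades p53, from 8.35, 8.41 and 8.45 to 9.17, 8.89 and 8.92 (0.59 ± 0.11, limma adjusted p = 0.0114), and Gadd45a (0.83 ± 0.24, limma adjusted p = 0.0433). Ephx1, a hydrolase of xenobiotic epoxides, and Ercc5 were the stable ones, and both also stand in other lists here. The apoptosis genes Bbc3 and the cyclin Ccng1 did not pass, with differences of −0.03 ± 0.10 and 0.24 ± 0.15 (limma adjusted p = 0.834 and 0.297). Plk3 fell by 0.78 ± 0.16 (limma adjusted p = 0.0158).

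Of 29 genes known for amplification or mutation in oral squamous carcinoma, 12 rose with a median of 0.42. The count was 8 after quantile normalization, 5 after cyclic loess, and between 3 without normal array 3 and 13. Besides Cdkn2a, Ccnd1 and Myc, which were stable, Ajuba, a LIM protein of cell junctions, rose by 1.10 ± 0.20 (limma adjusted p = 0.0106), from 8.22, 7.74 and 7.87 to 8.64, 9.0 and 9.49, while a further probe set gave 0.17. The atypical cadherin Fat1 rose by 0.75 ± 0.20 (limma adjusted p = 0.035), the histone methyltransferase Nsd1 by 0.58 ± 0.11 (limma adjusted p = 0.0109) and the antioxidant regulator Nfe2l2 by 0.62 ± 0.13 (limma adjusted p = 0.0156). Egfr, which encodes the receptor of epidermal growth factor, overlapped at 8.10, 8.11 and 8.08 against 8.08, 8.23 and 8.90, since only 4NQO array 3 stood out (0.31 ± 0.19, limma adjusted p = 0.28), and Pik3ca did not pass (−0.31 ± 0.13, limma adjusted p = 0.124). These are RNA levels and carry no information on copy number or mutation.

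Of 39 chromatin regulators, 12 rose with a median of 0.30, 7 after quantile normalization with 1 fall, 7 after cyclic loess with 2 falls, and from 4 without normal array 3 to 13. Kdm6b, the demethylase of histone H3 lysine 27, had the largest rise of the list, 2.58-fold, from 6.19, 5.95 and 5.79 to 7.45, 7.21 and 7.37 (1.37 ± 0.14, limma adjusted p = 0.00323). The groups were about 1 log2 unit apart. The H3 lysine 4 demethylases Kdm5a and Kdm1a rose by 0.66 ± 0.10 and 0.63 ± 0.11 (limma adjusted p = 0.00739 and 0.00876), and with Kdm6b they were stable. Smarca4, the ATPase of the SWI/SNF remodeller, rose by 0.67 ± 0.12 (limma adjusted p = 0.0112).

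**Figure D2:**
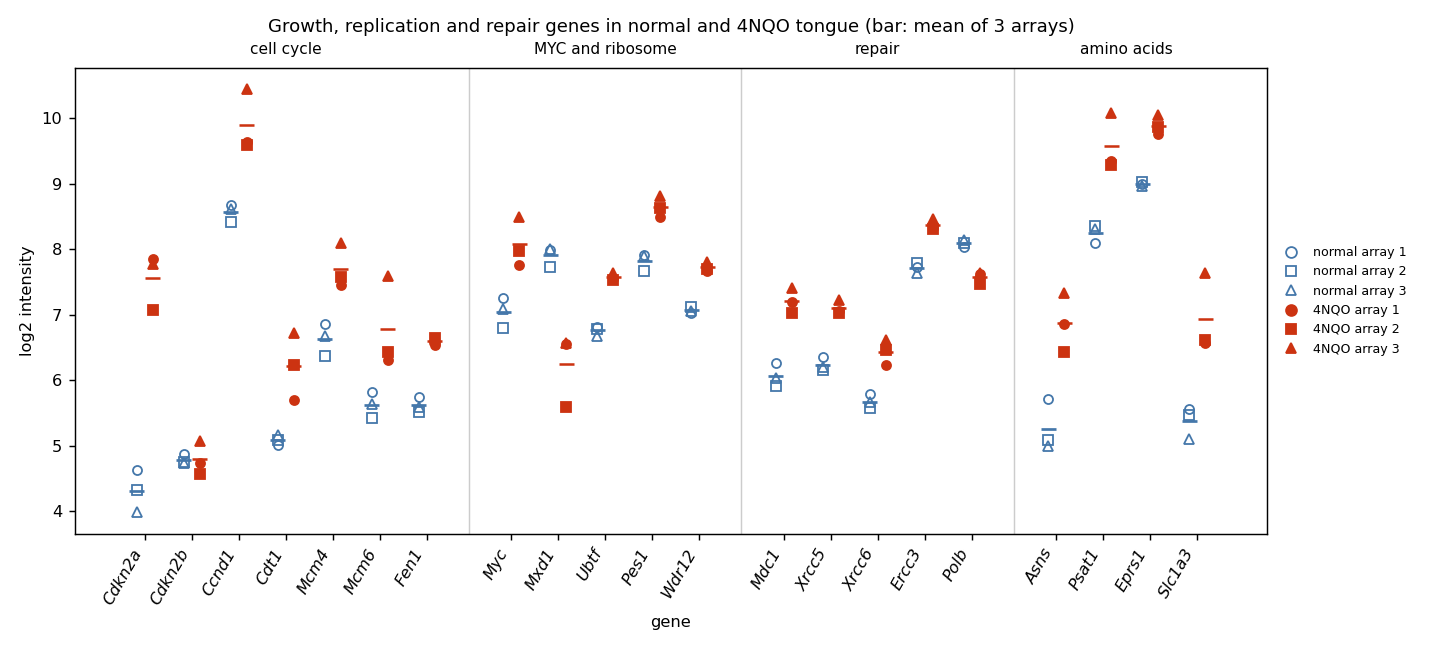
Log2 intensity (vertical axis) of cell cycle, MYC and ribosome, repair and amino acid genes on the 3 normal arrays (open blue) and the 3 4NQO arrays (filled red), with a bar at each group mean. Cdkn2a is higher on all 4NQO arrays while its neighbour Cdkn2b overlaps, and Mxd1 and Polb run against the other genes drawn.

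Of 39 genes of the ATF4 response to amino acid shortage, 12 rose and 1 fell, with a median of 0.38. The rises numbered 7 after quantile normalization, 6 after cyclic loess, and from 5 without normal array 2 or 3 to 15 without 4NQO array 2. Asparagine synthetase (Asns) read 5.71, 5.08 and 5.0 in normal tongue and 6.86, 6.43 and 7.33 in 4NQO tongue, a gap of over 0.7 between the groups, and rose 3.05-fold (1.61 ± 0.24, limma adjusted p = 0.00621). Serine synthesis followed, with Psat1 2.49-fold higher, from 8.10, 8.35 and 8.32 to 9.35, 9.28 and 10.08 (1.32 ± 0.21, limma adjusted p = 0.00776), and Phgdh, its first enzyme, higher by 0.94 ± 0.25 (limma adjusted p = 0.0345). Of the tRNA synthetases, Eprs1 was nearly constant within each group at 9.0, 9.02 and 8.97 against 9.75, 9.86 and 10.05 (0.89 ± 0.11, limma adjusted p = 0.00431), and Yars1 and Mars1 rose by 0.77 ± 0.13 and 0.67 ± 0.12 (limma adjusted p = 0.00816 and 0.00909). These 5 genes other than Phgdh were stable. Further probe sets of Eprs1 ran from −0.03 to 0.48, and that of Mars1 gave 0.01. The fall was Ppp1r15a, which restores translation after stress (−0.70 ± 0.15, limma adjusted p = 0.0174).

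Among 30 amino acid transporters, 6 rose and 1 fell, with 2 rises left after quantile normalization and after cyclic loess and none without normal array 3. The glutamate carrier Slc1a3 read 5.57, 5.47 and 5.11 against 6.57, 6.62 and 7.63 and rose 2.94-fold (1.56 ± 0.29, limma adjusted p = 0.0113), with further probe sets at 0.02 and 0.64. Slc7a5 and Slc3a2, the light and heavy chains of the leucine carrier, rose by 1.26 ± 0.31 and 0.60 ± 0.17 (limma adjusted p = 0.0266 and 0.0439). The cystine carrier Slc7a11 did not pass, since 4NQO arrays 1 and 2 at 6.52 and 6.23 were close to the normal arrays and array 3 at 9.64 was far above them.

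Of 46 heat shock and cold-inducible genes, 13 rose with a median of 0.31, falling to 6 after quantile normalization, to 2 after cyclic loess and to none without normal array 3. Mitochondrial Hspa9 read 9.90, 9.97 and 9.96 against 10.51, 10.54 and 10.41 (0.54 ± 0.10, limma adjusted p = 0.0109), and Bag3, a co-chaperone of HSP70, read 10.10, 10.07 and 9.98 against 10.57 on each 4NQO array (0.52 ± 0.11, limma adjusted p = 0.0148). Those 2 genes were the rises called after cyclic loess. In this list 1 fall was called after quantile normalization and 1 after cyclic loess. Of the ring chaperonin that folds actin and tubulin, Cct4, Cct5, Cct7 and Tcp1 rose by 0.41 to 0.47. In the unfolded protein response of the endoplasmic reticulum, 8 of 35 genes rose with a median of 0.24, 1 after quantile normalization and none after cyclic loess or without normal array 3. The disulfide isomerase Pdia4 had the largest of these differences (0.78 ± 0.16, limma adjusted p = 0.0148).

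Circadian genes differed widely. The clock is a loop in which BMAL1 with CLOCK or NPAS2 drives the Per, Cry and Nr1d genes through E-box sequences, and their products shut the drivers off. Output factors such as DBP, TEF and HLF act on D-box sequences. Of 16 core clock genes, 5 rose and 3 fell, against 4 and 4 after quantile normalization and 4 and 5 after cyclic loess. Without normal array 3 there was 1 rise, and without any one normal array there was no fall. Of 15 output genes, 8 rose with a median of 0.74, 6 after quantile normalization and after cyclic loess, and from 3 without normal array 3 to 9. Bmal1 and Npas2 fell, and both were lower by more on 4NQO arrays 2 and 3 than on array 1, as Bmal1 read 6.69, 6.89 and 6.61 in normal tongue and 6.13, 4.79 and 4.79 in 4NQO tongue (−1.50 ± 0.38, limma adjusted p = 0.0284). Per2 showed the mirrored order at 5.90, 6.42 and 5.99 against 7.14, 8.98 and 8.70 (2.17 ± 0.44, limma adjusted p = 0.0145), while a further probe set gave −0.02. Nr1d2, the repressor REV-ERB beta, was even on the 4NQO arrays at 9.34, 9.40 and 9.41 against 7.93, 7.64 and 7.62 and was the stable member of the core loop (1.66 ± 0.27, limma adjusted p = 0.00805). Nr1d1 was called in neither direction, at 7.16, 6.98 and 7.12 against 8.79, 7.30 and 7.75 (0.86 ± 0.35, limma adjusted p = 0.119), and here 4NQO array 1 was the highest. Clock itself overlapped (0.18 ± 0.16, limma adjusted p = 0.461). The 4NQO arrays thus did not keep one order over the clock genes. How far the time of day at which each group was killed entered these values was not tested.

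Stable output rises were Dbp, Bhlhe40 and Bhlhe41. Bhlhe41, a repressor of BMAL1 activity, read 8.2, 7.95 and 7.79 in normal tongue and 10.01, 9.38 and 9.77 in 4NQO tongue (1.74 ± 0.19, limma adjusted p = 0.0033), and its paralogue Bhlhe40 read 5.50, 6.08 and 5.44 against 7.94, 6.75 and 7.44 (1.70 ± 0.29, limma adjusted p = 0.0088). Both were separated, and in both 4NQO array 1 was the highest and array 2 the lowest. Tef and Hlf rose by 1.16 ± 0.27 and 1.09 ± 0.23 (limma adjusted p = 0.0221 and 0.0157).

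The promoters of the clock genes that passed the test were read for the letters these factors bind, taking the 250 bases before the start of each gene in RefSeq's GRCr8 assembly. The E-box CACGTG, which reads the same on both strands, was found in 5.79% of 27457 promoters and in 7.82% of the 11733 of genes on the arrays. The D-box TTANGTAA, searched on both strands, was found in 2.02% and 1.25%. Of the 11 clock output genes with a promoter in the table, 3 held the E-box and Coq10b, which did not pass the test, held the D-box. Of the 14 core genes none held the E-box in this window and Per2 held the D-box. These stretches are shown because they lie beside genes that rose, with the motif in capitals and each written along its gene's strand.
Bhlhe40, chr4:143174210-143174255, plus strand, motif 220 bases before the start: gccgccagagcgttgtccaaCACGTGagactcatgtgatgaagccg
Bhlhe41, chr4:180569378-180569423, minus strand, motif 48 bases before the start: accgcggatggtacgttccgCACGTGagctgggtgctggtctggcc
Tef, chr7:115206609-115206654, plus strand, motif 198 bases before the start: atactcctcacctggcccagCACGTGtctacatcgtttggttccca
Per2, chr9:99497158-99497205, minus strand, motif 192 bases before the start: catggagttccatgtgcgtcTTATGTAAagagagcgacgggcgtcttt
A match is a description of the letters and was not tested as a binding site, and no match says only that these letters are not in this window.

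Of 32 genes that glucocorticoids induce in many tissues or that handle the hormone, 11 rose and 3 fell, with a median of 0.37. The rises numbered 9 after quantile normalization, 8 after cyclic loess, and from 4 without normal array 2 or 3 to 11. Falls numbered 3 after each of those scalings, and none was called when any normal array was left out. Sgk1, a kinase that controls ion channels, read 7.64, 6.91 and 7.72 against 8.79, 8.30 and 9.03 (1.28 ± 0.26, limma adjusted p = 0.014), and the arrestin Arrdc3 read 8.23, 8.46 and 8.54 against 8.93, 9.58 and 9.68 (0.99 ± 0.19, limma adjusted p = 0.0125). Both were stable and without overlap. Klf9 rose by 0.68 ± 0.14 and Errfi1, a brake on EGF receptors, by 0.71 ± 0.14 (limma adjusted p = 0.0145 and 0.0147). Other well-known targets did not follow. Tsc22d3, which encodes GILZ, did not pass (0.34 ± 0.17, limma adjusted p = 0.203), and Angptl4, an inhibitor of lipoprotein lipase, fell 3.70-fold, from 9.41, 9.73 and 9.48 to 7.31, 8.68 and 6.97 (−1.89 ± 0.51, limma adjusted p = 0.0362). Hsd11b2, which inactivates the hormone, fell by 1.02 ± 0.24 (limma adjusted p = 0.0245). Per1, which is in this list and in the clock list, rose by 1.16 ± 0.23 (limma adjusted p = 0.0142).

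**Figure D3:**
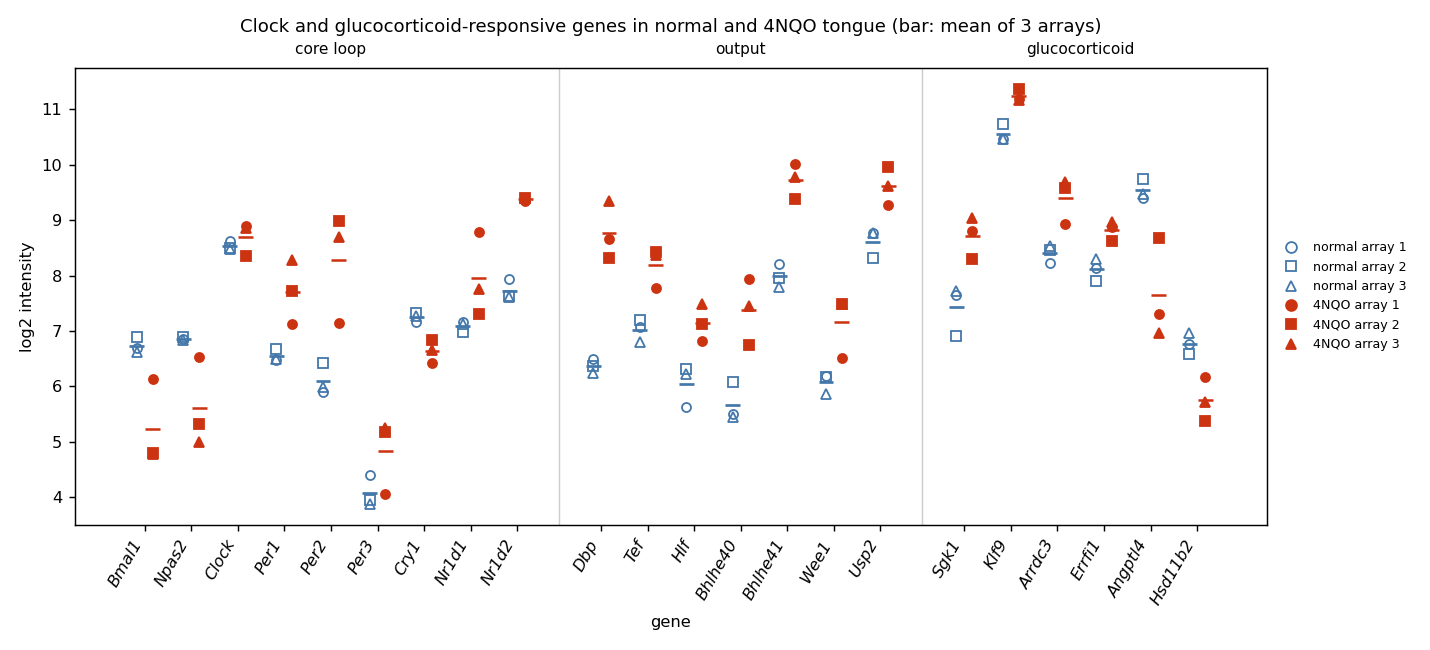
Log2 intensity (vertical axis) of core clock, clock output and glucocorticoid-responsive genes on the 3 normal arrays (open blue) and the 3 4NQO arrays (filled red), with a bar at each group mean. Bmal1 and Npas2 lie lower and the output genes lie higher in 4NQO tongue, and the 4NQO arrays differ in order from gene to gene.

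Of 19 fibrillar and type VI collagens and related chains, 5 fell and 1 rose, with a median of −0.73. The falls were 5 after quantile normalization and after cyclic loess, but 10 without 4NQO array 1 and none when any normal array was left out. Col1a2 read 11.13, 11.55 and 11.16 in normal tongue and 10.65, 8.73 and 9.62 in 4NQO tongue (−1.61 ± 0.39, limma adjusted p = 0.0243). Col3a1 read 12.21, 12.44 and 12.23 against 11.62, 8.89 and 10.92 (−1.82 ± 0.53, limma adjusted p = 0.0469). For both genes, array 1 was closest to normal and array 2 farthest. Col3a1 was not called after quantile normalization or cyclic loess, so the falls counted there were not all the same genes. Col18a1, a basement membrane collagen that yields endostatin, was the rise (0.59 ± 0.17, limma adjusted p = 0.041). This rise was called after neither of those scalings, and it was lost in 8 of the fits that left out 1 array. Fibronectin (Fn1) fell 2.62-fold, from 10.50, 10.97 and 10.44 to 10.07, 8.45 and 9.22 (−1.39 ± 0.36, limma adjusted p = 0.0307), elastin (Eln) by 1.02 ± 0.24 (limma adjusted p = 0.0221) and fibrillin 1 (Fbn1) by 1.64 ± 0.47 (limma adjusted p = 0.0452). Cathepsin K (Ctsk), a collagenase, fell by 1.23 ± 0.26 (limma adjusted p = 0.0165). Of 34 fibroblast and microfibril genes 12 fell, from 2 without normal array 3 to 18 without 4NQO array 1, and their summed linear intensity ran from 13024 to 26254 on the 4NQO arrays against 31394 to 35457 on the normal arrays. Fap and PCOLCE2, a collagen processing enhancer, were the stable falls. The part of the share of lamina propria in these falls was not tested.

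Basement membrane genes went both ways. Of 15 genes, 3 rose and 4 fell, with a median of −0.38. The rises were laminin chains, Lamb3 by 1.45 ± 0.32, Lama3 by 0.94 ± 0.25 and Lama5 by 0.84 ± 0.20 (limma adjusted p = 0.0188, 0.0335 and 0.0233). Lamb3, of the laminin that anchors hemidesmosomes, read 6.99, 5.89 and 6.66 against 7.76, 7.59 and 8.54, and it alone of the 3 was called after quantile normalization and cyclic loess, while further Lama5 probe sets gave −0.48 and −0.32. The falls were Nid1, Lamc1, a laminin chain, and Col4a5 and Col4a6, collagen IV chains restricted to certain basement membranes. Nid1, which joins laminin to collagen IV, read 9.80, 10.23 and 9.99 against 9.48, 8.59 and 8.47 (−1.16 ± 0.27, limma adjusted p = 0.0216), with a further probe set at 0.19, and Col4a5 fell by 0.86 ± 0.17 (limma adjusted p = 0.0148). The 4 falls were called under all 3 scalings, and none was called without normal array 2 or 3.

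Of 18 genes used to follow epithelial to mesenchymal transition, 1 rose and 4 fell, and 4 falls and no rise were called after quantile normalization and cyclic loess. Zeb2, a repressor of E-cadherin, was the stable fall at 7.45, 7.41 and 7.26 against 6.80, 6.86 and 6.57 (−0.63 ± 0.12, limma adjusted p = 0.0116), although its 4 further probe sets, from −0.33 to −0.14, did not pass. Twist1 fell by 0.62 ± 0.16 (limma adjusted p = 0.0311). Integrin beta 6 (Itgb6), an epithelial activator of TGF-beta, rose by 0.68 ± 0.17 (limma adjusted p = 0.028). The falls numbered 1 without any one normal array and without 4NQO array 2 or 3.

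Of 23 endothelial genes 7 rose with a median of 0.42, 3 after quantile normalization, 1 after cyclic loess, and from none without normal array 3 to 10. Plvap, of the diaphragms of fenestrated capillaries, read 7.84, 7.93 and 7.87 against 8.90, 8.44 and 9.14 (0.95 ± 0.20, limma adjusted p = 0.0176). Von Willebrand factor (Vwf) rose by 1.06 ± 0.25 and the arterial factor Sox17 by 0.84 ± 0.20 (limma adjusted p = 0.0231 and 0.0226). Further Sox17 probe sets gave 0.15 and 0.17 and did not pass. Plvap, Vwf and Sox17 were not called after cyclic loess. The call there was Flt1, which rose by 0.83 ± 0.17 as deposited (limma adjusted p = 0.0138). Vegfa, the main ligand, overlapped at 8.49, 8.29 and 8.16 against 8.21, 8.47 and 8.11 (−0.05 ± 0.15, limma adjusted p = 0.83). Of 41 genes of the FGF, PDGF, VEGF and IGF families 7 rose and 3 fell. The falls were FGF ligands, and Fgf22, a ligand made by keratinocytes, was stable at 6.36, 6.03 and 6.36 against 4.58, 5.32 and 4.47 (−1.46 ± 0.24, limma adjusted p = 0.00805). Fgf7, the keratinocyte growth factor of fibroblasts, fell by 0.50 ± 0.12, and its receptor gene Fgfr2 rose by 0.92 ± 0.27 (limma adjusted p = 0.022 and 0.0461). In these families 3 genes rose and 2 fell after quantile normalization, and 1 rose and 2 fell after cyclic loess. Without normal array 3 none of the 7 rises was called.

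Immune cell genes gave few calls. None of 22 macrophage genes passed limma's test, with 1 higher and 3 lower at an unadjusted p under 0.05 and 2 lower by the methods' t-test, and 6 fell without 4NQO array 1. Cd68 was lower on each 4NQO array at 6.14, 5.13 and 5.57 against 6.31, 6.41 and 6.32 (−0.73 ± 0.24, limma adjusted p = 0.0688). None of 10 MHC class II genes passed limma's test, and none had an unadjusted p under 0.05 by limma or by the methods' t-test. Of 12 B and plasma cell genes 5 fell with a median of −0.45. The falls numbered 3 after quantile normalization, 2 after cyclic loess, and between 1 without normal array 2 or 3 and 6. Prdm1, above, was one of the 5. Mzb1, a chaperone of immunoglobulin in plasma cells, fell by 0.68 ± 0.18 (limma adjusted p = 0.0356), from 5.38, 5.31 and 5.71 to 4.87, 4.63 and 4.85, and Cd22, Ms4a1 and Cd79b fell by 0.43 to 0.56 at values near the lower end of the scale. Mzb1, Cd22 and Ms4a1 were not called after cyclic loess.

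None of 20 fast fibre genes, 16 slow fibre genes, 19 nerve and Schwann cell genes and 56 genes of the respiratory chain passed limma's test. At an unadjusted p under 0.05 these lists held 2, 3, 1 and 2 genes, and by the methods' t-test 0, 1, 0 and 2. Summed linear intensities of the fast fibre genes ran from 117911 to 150804 on the 4NQO arrays and from 128124 to 140569 on the normal arrays, so these ranges overlapped. Of 17 genes of muscle regeneration and atrophy, 3 rose and 1 fell, with 1 rise and no fall left after cyclic loess, and no rise without normal array 2 or 3. Runx1, a transcription factor induced in denervated muscle, read 6.20, 6.27 and 6.09 against 7.11, 6.55 and 7.33 (0.81 ± 0.18, limma adjusted p = 0.0185). Chrng, the fetal subunit of the muscle acetylcholine receptor, read 5.43, 5.31 and 5.37 against 4.76, 4.92 and 4.69 (−0.58 ± 0.15, limma adjusted p = 0.0318). The groups did not overlap for either gene. Of 35 genes of glucose uptake and glycolysis 7 rose and 1 fell, with 5 rises after quantile normalization and after cyclic loess and 3 without normal array 3. Slc16a1, the lactate carrier, read 9.52, 9.59 and 9.52 against 10.12, 10.29 and 10.01 (0.59 ± 0.10, limma adjusted p = 0.00916), with a further probe set at −0.32, and liver-type glycogen phosphorylase (Pygl) read 5.78, 5.80 and 5.98 against 6.72, 6.42 and 6.74 (0.78 ± 0.14, limma adjusted p = 0.011). Both were stable.

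**Figure D4:**
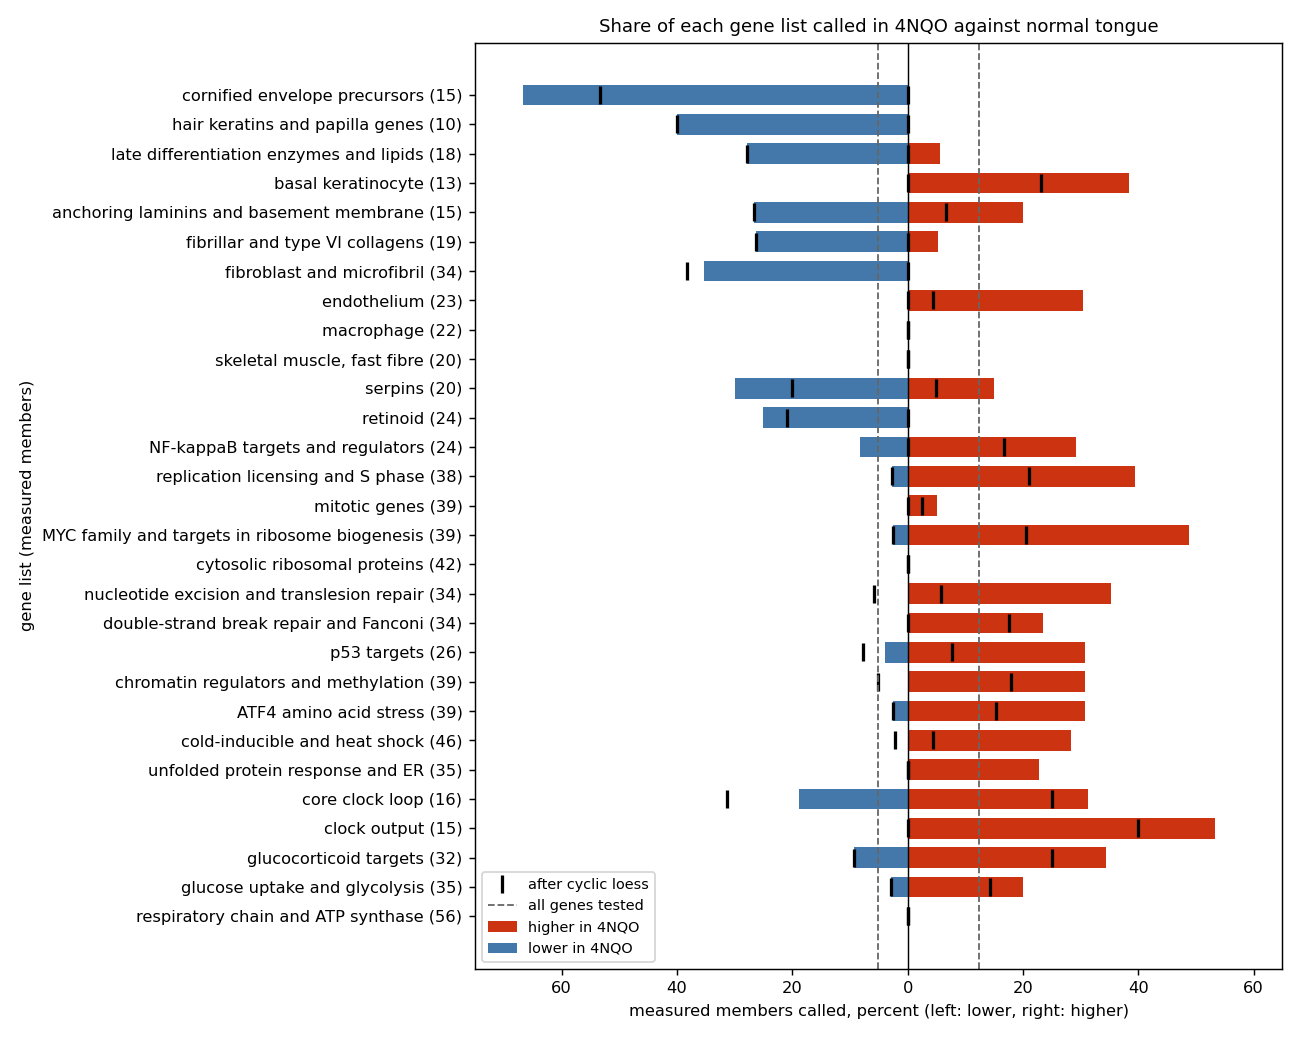
Percent of the measured members of each gene list (rows, number measured in brackets) that fell (blue, left) or rose (red, right) in 4NQO tongue, with black ticks for the percent after cyclic loess and dashed lines for all genes, 5.08% and 12.4%. Cornified envelope, hair keratin and fibroblast lists lie on the lower side, with 10 of 15, 4 of 10 and 12 of 34 genes lower, and the ribosome biogenesis and S phase lists on the higher side, with 19 of 39 and 15 of 38 genes higher.

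Of 24 NF-kappaB targets and regulators 7 rose and 2 fell, and 4 rises and no fall were called after quantile normalization and after cyclic loess. Nfkb2 read 5.68, 5.88 and 5.53 in normal tongue and 6.91, 6.27 and 6.54 in 4NQO tongue (0.88 ± 0.17, limma adjusted p = 0.0133), and the inhibitor Nfkbia read 8.42, 8.29 and 8.72 against 9.17, 9.25 and 9.66 (0.88 ± 0.18, limma adjusted p = 0.014). Tnf, a principal activator, was among the falls at 5.33, 5.29 and 5.41 against 4.87, 4.6 and 4.74 (−0.61 ± 0.18, limma adjusted p = 0.0493). The groups did not overlap for these 3 genes. Rises numbered 2 without normal array 2. Of 30 immediate early genes 8 rose and 1 fell, with a median of 0.05, and 18 estimates lay above 0. After cyclic loess 3 rose and 2 fell, and 2 rises were called without normal array 2 or 3. The Nr4a nuclear receptors, which are induced within minutes by many stimuli, rose in all 3 members. Nr4a1 rose by 1.27 ± 0.21, Nr4a2 by 0.73 ± 0.17 and Nr4a3 by 1.44 ± 0.36 (limma adjusted p = 0.00805, 0.0242 and 0.0286). Nr4a1, at 6.46, 6.99 and 7.41 against 8.42, 8.26 and 8.02, was stable.

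Retinoid and prostaglandin genes included stable falls. Of 24 retinoid genes 6 fell, 5 after quantile normalization and after cyclic loess, and from 2 to 5 when an array was left out, with 2 without normal array 1 or 3 or 4NQO array 2. Rarres1, induced by retinoic acid, read 9.33, 8.95 and 9.07 against 7.5, 6.86 and 7.62 (−1.79 ± 0.27, limma adjusted p = 0.00649), and Dhrs9, a dehydrogenase of retinol, fell by 0.90 ± 0.13 (limma adjusted p = 0.00629). Cyp26b1, which degrades retinoic acid, fell by 0.85 ± 0.20, and Aldh1a2, which makes it, by 0.93 ± 0.26 (limma adjusted p = 0.0226 and 0.0411). Of 27 genes for the synthesis and receptors of prostaglandins and other eicosanoids, 2 rose and 3 fell. After quantile normalization and after cyclic loess none of them rose and 4 fell. Hpgd, which inactivates prostaglandins, was a stable fall at 7.87, 8.22 and 7.59 against 7.05, 7.11 and 7.20 (−0.78 ± 0.15, limma adjusted p = 0.0117), and the constitutive cyclooxygenase Ptgs1 rose by 0.96 ± 0.25 (limma adjusted p = 0.0341), with a further probe set at −0.29. Of 20 glutathione transferases 4 rose and 1 fell. After cyclic loess 2 rose and none fell, and the rises ran from 1 without normal array 3 to 6. Mgst2, a microsomal member, was stable at 8.40, 8.16 and 8.44 against 9.5, 9.54 and 10.26 (1.44 ± 0.23, limma adjusted p = 0.00793).

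The 4NQO tongues differed more among themselves than the normal tongues did. The median SD of a probe set was 0.19 over the 4NQO arrays and 0.113 over the normal arrays, and pairs of arrays correlated at 0.979 to 0.986 within 4NQO and at 0.992 to 0.995 within normal tongue. No further label separates the 4NQO samples, and the values below are a description of each. The cornified envelope median was −1.13, −2.87 and −1.01 on 4NQO arrays 1, 2 and 3, and the fibroblast median −0.05, −1.08 and −0.73. The B and plasma cell median was nearly the same on each array at −0.44, −0.41 and −0.42. The ribosome biogenesis median was 0.29, 0.47 and 0.72, the double-strand break repair median at 0.27, 0.18 and 0.52 and the basal keratinocyte median at 0.43, 0.48 and 1.07. The mitotic median was 0.23, −0.29 and 0.91, so that it lay on both sides of the normal level. The macrophage median was 0.35, −0.93 and −0.53.

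Array 2 had the lowest cornified values and array 3 the highest for several genes of papilla and stress. Trichohyalin (Tchh), a protein of hair and papilla cells, read 12.57, 10.57 and 12.20 in normal tongue and 4.58, 7.24 and 10.74 in 4NQO tongue. Its SD among the 4NQO arrays (3.09) was the largest of the genes whose normal or 4NQO mean lay above the median of all values. Its overlap with normal came from array 3. Krt24 followed the same order at 4.25, 6.53 and 10.17. Krt1, the keratin of skin spinous cells, read 9.08, 6.73 and 11.71 against 7.47, 6.77 and 7.70 in normal tongue. Array 3 also stood apart for enzymes of detoxification. Gstm1 read 9.45, 9.5 and 12.15 and carbonyl reductase (Cbr1) 7.93, 7.92 and 10.44, against highest normal values of 8.47 and 7.45. Neither passed the test (limma adjusted p = 0.0535 and 0.131). Array 1 was set apart from the other 4NQO arrays by the immediate early gene Fos at 9.63, 6.26 and 5.96. Normal tongue read 7.58, 8.57 and 8.98 for Fos, so array 1 lay above every normal array and arrays 2 and 3 lay below them. The erythroid enzyme Alas2 read 9.01, 7.56 and 5.32 against 7.40, 6.49 and 6.74 in normal tongue, and array 3 lay farthest from the other 4NQO arrays. For such genes the group mean lies far from at least 1 of the 3 arrays.

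**Figure D5:**
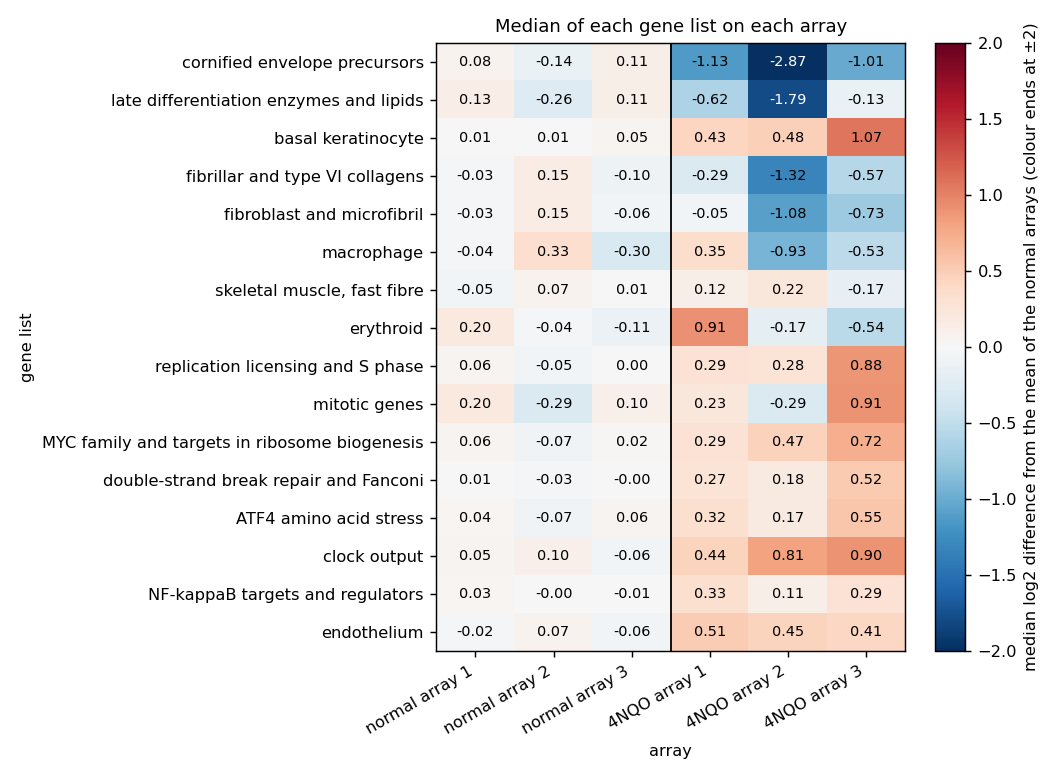
Median log2 difference from the normal mean of gene lists (rows) on each of the 6 arrays (columns), in blue for lower and red for higher. The cornified envelope list lies lowest on 4NQO array 2 at −2.87, and the mitotic list lies at 0.23, −0.29 and 0.91 on 4NQO arrays 1, 2 and 3.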

How the data were processed

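Total RNA from rat tongue was labelled and read on Affymetrix rat expression arrays, with a single array for each tongue sample. The authors deposited 1 linear intensity per probe set and array. Per the labels' processing notes, these intensity values came from Affymetrix Expression Console with RMA, in versions not given in the sources used here. By the labels the RNA was extracted with an RNeasy kit, and by the methods with Trizol and then RNeasy. The log2 of each deposited intensity was taken for every test, with no new background correction or scaling. RMA makes arrays alike in distribution, yet upper quartiles were 7.04 to 7.08 on normal and 7.21 to 7.28 on 4NQO arrays, so small shifts depend on the scaling.

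Of 31099 probe sets, 57 controls were left out and 31042 tested. Platform annotation named 20826 with 1 gene symbol, 436 with several and 9780 with none, and only the first were used, for 14217 genes, of which 4525 had further probe sets. With the 9 arrays and a mean for each of 3 groups, fits were made in limma 3.58.1 in R 4.3.3, with eBayes (6 residual and 4.01 prior degrees of freedom), two-sided tests and Benjamini-Hochberg adjustment at 0.05. The number of arrays limits the precision. The labels do not tie samples to single animals, so p-values measure the spread between these samples.

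The lists and genes were chosen with earlier results of these data known. Named were the 15 largest rises and falls (those given values were chosen from them after these were seen), up to 6 called members of each list by adjusted p, defining members of a list and genes with a PCR primer in the study. Not all of these are described above, and several genes with a PCR primer are not. The counts of named genes below include those not described. A few others were named for the spread among 4NQO arrays or their chromosome position, after their values were seen. A gene under the lower quartile in both groups was given no fold. List counts stand beside those over all genes, without a set test. The settings tried were quantile normalization, cyclic loess, median centring, a filter on the dimmest 40% of probe sets, the 6 arrays alone, eBayes with trend and robust, array weights, the mean of a gene's probe sets, its further probe sets, the methods' t-test (Student, equal variance) and leaving out each array. Gene order and promoters came from RefSeq GRCr8, without its coordinates for array results. On simulated data with 31042 probe sets, the fit called 9 of 50 changes of 0.5, 40 of 50 of 1, 49 of 50 of 2 and 7 of 30842 unchanged probe sets. The simulated arrays had the same spread in each group and no shift in scaling, unlike the real arrays, so these rates need not hold for them. Python 3.11.15 with matplotlib 3.10.9 made the figures.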

Additional observations from a re-analysis of the deposited data

How the results depend on the processing

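Of 31042 probe sets 4610 were called, 2922 higher and 1688 lower, so that 63.4% were higher. After quantile normalization 2821 were called, 1463 of them higher (51.9%), and after cyclic loess 2480, of which 1182 were higher (47.7%). Median centring gave 66.5% higher and leaving out dim probe sets 71.9%. Leaving out 1 array gave 851 to 4417 calls, 597 to 2896 higher and 254 to 1679 lower, with the lowest values without normal array 3. The methods' t-test at an unadjusted p under 0.05 called 452 probe sets with a 2-fold difference, 2249 with a 1.5-fold difference and 1 after Benjamini-Hochberg. Array weights, eBayes with trend and robust and the 6 arrays alone kept the total within 1.5 times. Of 305 named genes that passed, 117 lost the call after cyclic loess, 87 after quantile normalization, 76 with the 6 arrays alone, 12 with trend and robust and 17 with array weights. Without normal array 1, 2 or 3 the losses were 138, 164 and 220. No named gene changed sign under those settings. With the mean of a gene's probe sets, Rasip1 (−0.019), Lifr (0.016) and Stra6 (0.00) changed sign, and a further probe set was called the other way for Lifr (0.54), Pfkfb3 (−0.49) and Lpin2 (−0.45). No paired analysis was possible because the labels give no replicate numbers shared between the groups. The cause of these changes was not tested. Signal over background limits genes under the lower quartile of about 3.7, where small differences were not interpretable.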
